A study of Arabidopsis thaliana with 24 samples.

Results

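The genes described here are the chloroplast-encoded genes of Arabidopsis thaliana outside the photosynthetic complexes and Rubisco: those with a chloroplast locus tag whose symbol does not start with psa, psb, pet, atp or ndh and is not rbcL. The rule goes by symbol, and ycf3, ycf4 and ccsA, which it keeps, serve the assembly of photosynthetic complexes. A gene was taken where the platform annotation pairs a probe set with that gene and no other. The rule found 26 genes among 69 chloroplast genes with a probe set of their own, and among 13356 named genes of the whole series. The other 43 chloroplast genes, with the symbols left out, are called photosynthesis genes here. Of the 26, 8 encode proteins of the small ribosomal subunit (rps2, rps3, rps4, rps14, rps15, rps16, rps18 and rps19), 7 encode proteins of the large subunit (rpl14, rpl16, rpl20, rpl22, rpl32, rpl33 and rpl36), 4 encode RNA polymerase subunits (rpoA, rpoB, rpoC1 and rpoC2), and 7 have other functions (matK, accD, clpP, cemA, ccsA, ycf3 and ycf4). Each had 1 probe set, and all 26 passed the filter used for testing, an intensity that reached 30 on 2 arrays or more. The genes rps12, rpl2, rpl23, rps7, ycf1 and ycf2 are read by 7 probe sets that hold both copies of the inverted repeat and are not counted here.

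Chloroplasts keep a small genome of bacterial origin and express it with machinery that is partly their own. The plastid-encoded RNA polymerase is built from the rpo gene products, works with nuclear-encoded sigma factors, and shares the genome with a phage-type polymerase imported from the nucleus. Most chloroplast genes are transcribed in polycistronic clusters whose RNAs are then spliced, trimmed, edited and protected by nuclear-encoded proteins, and their messages are read by a bacterial-type ribosome whose proteins come from both genomes. In roots, plastids are mostly colourless and carry few of the photosynthetic complexes, but they still contain the genome and make fatty acids, amino acids and starch.

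Total RNA of ecotype Col-0 was hybridised to Affymetrix ATH1 arrays, 2 for each of 12 groups and 24 in all. The groups are roots and shoots after 0.5, 1, 3, 6, 12 and 24 h at 4 °C. All plants were raised at 24 °C and 50% humidity on Murashige and Skoog medium under 16 h of light a day, and on day 16, when the lights had been on for 3 h, their boxes were set on ice in a cold room under light. No untreated group is among these samples, and changes are therefore relative to the samples of 0.5 h. Those of 3, 6 and 12 h also differ in time of day from those of 0.5, 1 and 24 h, and the effects of hour and of cold cannot be told apart there. Whether the 2 arrays of a group stand for separate plant cultures is not stated. A p-value here rests on the spread within the pairs of all 12 groups, which may be technical. For each gene an uneven pair in 1 group thus widens the error of every comparison, and 2 arrays a group limit the precision.

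Each array gives 1 linear intensity per probe set, scaled to the same trimmed mean of 100. Between 12189 and 13649 probe sets reached an intensity of 30 on root arrays, and between 11343 and 12724 on shoot arrays. The tissue labels were checked with marker genes. The 4 measured of 21 listed green-tissue genes (RCA, LHCB4.2, SBPASE and PRK) summed to 116 to 443 on root arrays and to 12891 to 21583 on shoot arrays, and the 3 root genes (PYK10, EXPA7 and EXPA18) summed to 2988 to 4040 on root arrays and to 431 to 789 on shoot arrays.

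The control probe set for 25S ribosomal RNA, the large rRNA of the cytosolic ribosome, was read beside the chloroplast genes. In roots it had 2679 and 2423 at 0.5 h, 2286 and 2195 at 1 h, 2196 and 1755 at 3 h, 2326 and 2119 at 6 h, 1637 and 1946 at 12 h, with 1454 and 2885 at 24 h. In shoots it had 212 and 246 at 0.5 h, 1862 and 1766 at 1 h, 1052 and 1129 at 3 h, 1307 and 982 at 6 h, 1373 and 961 at 12 h, with 889 and 1420 at 24 h. The shoot arrays of 0.5 h, to which all later shoot arrays were compared, thus stood below every other array, which read 889 or more. In roots the lowest and the highest reading were those of the 24 h pair. The part of this control, or of what it reflects, in the results that follow was not tested.

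Before the comparisons, 3 pairs of arrays need naming, because the 26 genes read differently on the 2 arrays of a pair. On replicate 1 of shoots at 1 h and on replicate 2 of roots at 3 h, the same 6 genes (matK, rpl32, rpoA, rps3, rps16 and rps18) lay more than 1 log2 unit under the partner array. For rpl32, which had 216 and 1578 in shoots at 1 h and 372 and 66.0 in roots at 3 h, the log2 difference of replicate 1 minus replicate 2 was −2.82 in shoots and 2.33 in roots. For rps3 it was −1.70 and 1.70, and for rpoA −1.56 and 1.29. Across the 26 genes the difference in the shoot pair and the reversed difference in the root pair correlated with r = 0.81, given as a description of genes that share 2 pairs of arrays. No member differed by more than 1 log2 unit within the pairs of roots at 0.5, 1, 6 and 12 h or of shoots at 0.5, 12 and 24 h. The third pair is that of roots at 24 h, where 23 of 26 members lay lower on replicate 1 than on replicate 2 (median difference −0.85). On replicate 1 also 42 of 43 photosynthesis genes lay under replicate 2, and the 25S control read 1454 against 2885. The control for 5S ribosomal RNA had 76.7 on replicate 1 and 257 on replicate 2, the highest reading of all 24 arrays, while the roots of 12 h had 80.1 and 86.8. Which array of the 24 h pair is the unusual one was not tested.

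**Figure D1:**
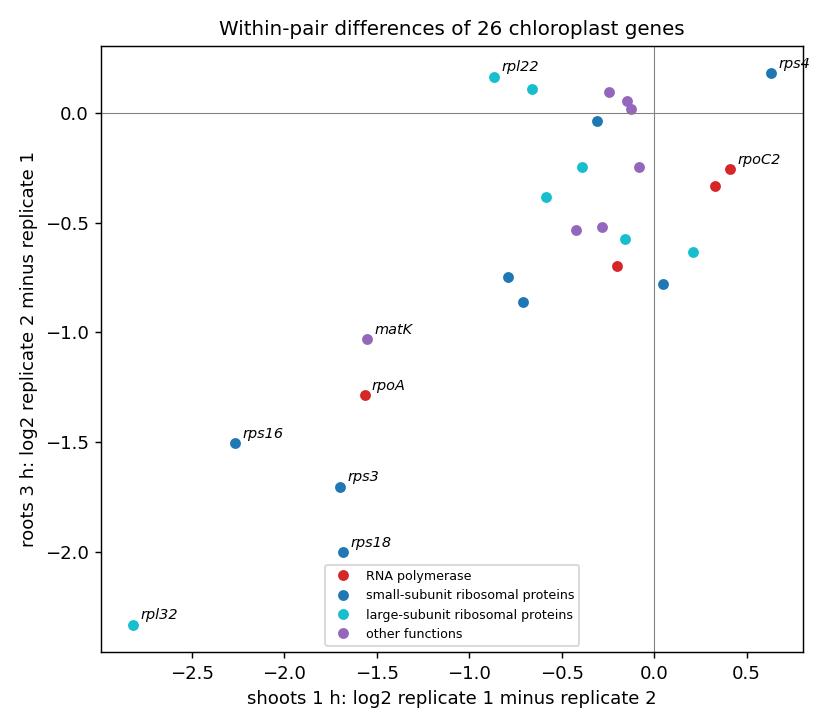
Within-pair log2 differences of the 26 genes, for shoots at 1 h (replicate 1 minus replicate 2, horizontal) and roots at 3 h (replicate 2 minus replicate 1, vertical), each point being 1 gene coloured by class. The genes matK, rpl32, rpoA, rps3, rps16 and rps18 lie below −1 on both axes, with rpl32 outermost at −2.82 and −2.33.

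The 26 genes were lower in roots than in shoots when averaged over the time course, in every class. Within roots none passed the test at 1, 3 or 6 h. At 12 h 17 fell, where 17.8% of all probe sets tested fell, and at 24 h 10 of 26, a share close to the 32.5% of all probe sets. Within shoots, 4 genes, rpoB, ycf3, accD and clpP, rose at 1 h (1.82% of all probe sets), 3 h (5.29%) and 6 h (9.74%), rpl33 joined them at 6 h, and accD was the last still higher at 24 h (19.2%). No member fell in shoots or rose in roots against 0.5 h. Changes are differences of log2(intensity + 10), called at a limma adjusted p under 0.05 over 16073 probe sets.

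**Figure D2:**
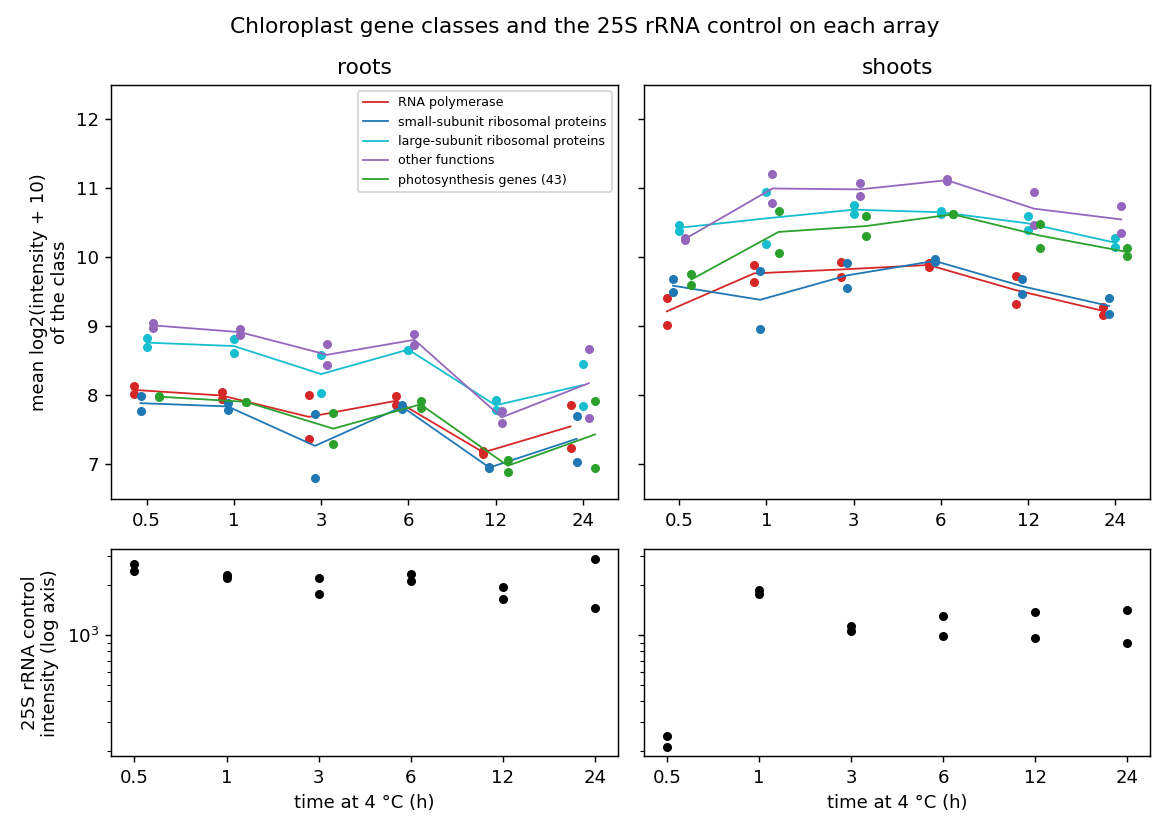
Mean log2(intensity + 10) of the 4 gene classes and of the 43 photosynthesis genes on each array (upper panels, points) with the group mean as a line, and the 25S rRNA control on a log axis (lower panels), by time at 4 °C in roots (left) and shoots (right). Classes hold different probe sets, so only the course within a class is to be read: all drop in roots at 12 h, and the shoot 25S control is at 212 and 246 at 0.5 h.

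Roots were set against shoots over all 6 times. All 26 members were lower in roots, where 29.2% of all probe sets tested were lower, and their median log2 difference was −1.98, against 0.30 for all probe sets tested. For 22 of 26 members every root array lay below every shoot array, which held for 13.8% of all probe sets tested. The exceptions were accD, rpoA, rps3 and rpl32. In bulk samples, fewer cells with such plastids and less RNA per cell cannot be told apart. All 26 calls held without any 1 of the 24 arrays.

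The largest difference was that of rpl33, a large-subunit protein that in tobacco is dispensable under normal growth and needed in the cold. Its intensity had a lowest value, median and highest value of 113, 291 and 444 on the 12 root arrays and of 1467, 2238 and 3097 on the 12 shoot arrays, a log2 difference of −3.02 ± 0.10 (SE; limma adjusted p = 2.4e-15). The root and shoot values were far apart. Next came ccsA, which takes part in attaching haem to c-type cytochromes, with 168, 326 and 348 in roots and 1506, 2063 and 2479.8 in shoots (−2.76 ± 0.08 SE, limma adjusted p = 2.6e-16). For rps16 the values were 12.1, 47.7 and 61.0 in roots and 62.1, 359.6 and 464 in shoots (−2.57 ± 0.20 SE, limma adjusted p = 1.1e-09), and the lowest shoot value, on replicate 1 at 1 h, came close to the highest root value.

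At the other end, rpoA, the alpha subunit of the polymerase, had 288, 722 and 875 in roots and 739, 2127 and 2507 in shoots (−1.46 ± 0.16 SE, limma adjusted p = 1.1e-07), with a small overlap of the ranges. The gene accD encodes the carboxyltransferase beta subunit of the acetyl-CoA carboxylase that starts fatty acid synthesis. It had 136, 352 and 427 in roots and 318, 1029 and 1300.1 in shoots (−1.49 ± 0.13 SE, limma adjusted p = 5.3e-09), and its ranges overlapped through the 0.5 h arrays, where roots read 406 and 427 and shoots 368 and 318. At that time accD was the 1 member with a higher mean level in roots, by 0.28 on the log2 scale. For rps14 the values were 28.2, 44.2 and 90.9 in roots and 93.7, 135 and 351 in shoots (−1.61 ± 0.15 SE, limma adjusted p = 1.1e-08), without overlap.

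The medians of the tissue difference at each time are given as a description, with no test of them. The median log2 difference of the 26 members, roots minus shoots, was −1.54 at 0.5 h, −1.83 at 1 h, −2.28 at 3 h, −2.06 at 6 h, −2.61 at 12 h and −2.03 at 24 h. By class at 12 h it was −2.30 for the polymerase genes, −2.80 for the small-subunit genes, −2.47 for the large-subunit genes and −3.15 for the genes of other functions. For the photosynthesis genes it was −1.82 at 0.5 h, −2.29 at 1 h, −3.02 at 3 h, −2.61 at 6 h, −3.38 at 12 h and −2.54 at 24 h.

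**Figure D3:**
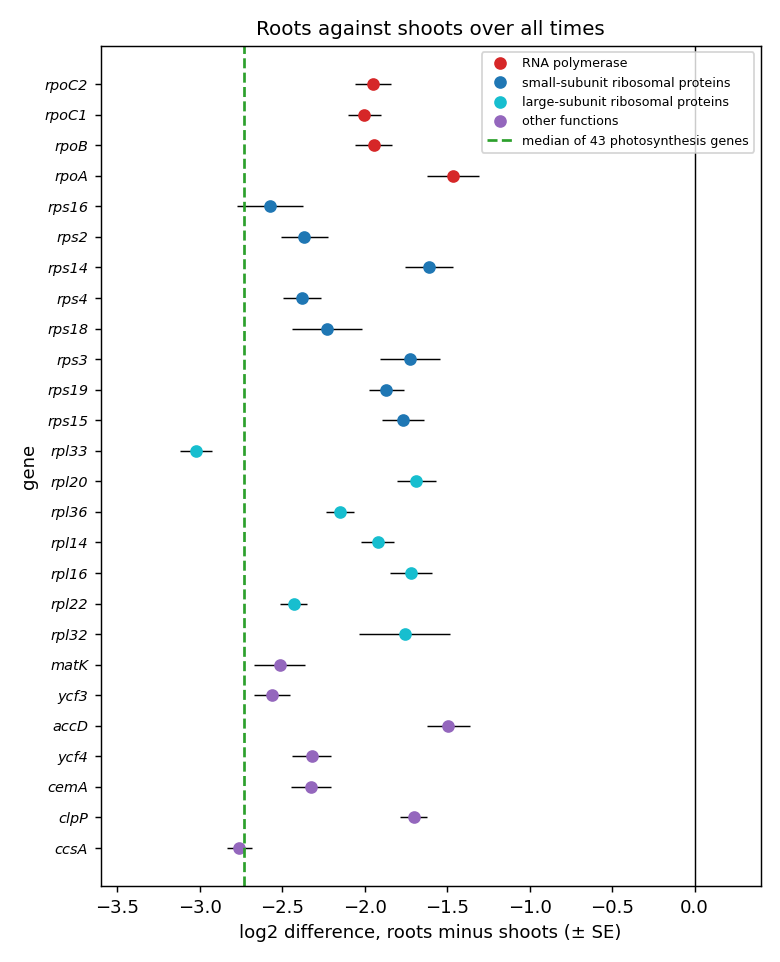
Log2 difference of roots minus shoots over all times for each of the 26 genes (points, coloured by class, with the standard error as a bar); the dashed line is the median of the 43 photosynthesis genes, −2.73. All points lie between −3.02 (rpl33) and −1.46 (rpoA).

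In roots no member passed the test against 0.5 h during the first 6 h. With limma 0 of 26 were called at 1 h (0.0187% of all probe sets in either direction), 0 at 3 h (2.45%) and 0 at 6 h (7.61%), and an unadjusted p under 0.05 was reached by 0, 5 and 1 members. The median log2 change was −0.10 at 1 h, −0.48 at 3 h and −0.07 at 6 h, against 0.00055, −0.04 and −0.08 for all probe sets tested. The 3 h median includes replicate 2, the array named above. In that pair 20 of 26 members lay higher on replicate 1 (median log2 difference 0.53). How far the median rests on replicate 2 was not tested.

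At 12 h, 17 of 26 members had fallen in roots, where 17.8% of all probe sets tested were lower, and their median log2 change was −1.12 against −0.13 for all probe sets tested. By class, all 7 genes of other functions, 3 of 4 polymerase genes, 4 of 8 small-subunit genes and 3 of 7 large-subunit genes fell. The 9 that did not pass the test were rpoA, rps3, rps14, rps16, rps18, rpl14, rpl22, rpl32 and rpl36, with log2 changes of −1.42 (rps18) to −0.09 (rps14). Of these, rpoA, rps3, rps16, rps18 and rpl32 are among the genes of the uneven pairs named above, which widen their error. Of the 17 calls, 10 held without any 1 of the 4 arrays compared. Those of matK (any 1 of the 4), rpoB (either array of 0.5 h or replicate 1 of 12 h), rps19 (either array of 0.5 h or replicate 2 of 12 h), ycf3 (replicate 2 of 0.5 h or either array of 12 h), rpl20 (replicate 1 of 0.5 h or of 12 h), ccsA (replicate 1 of 12 h) and rps2 (replicate 2 of 12 h) were lost without the arrays named. Against 1 h in place of 0.5 h, 15 members were lower at 12 h (17.5% of all probe sets), 14 of them among the 17. The 25S control had 1637 and 1946 at 12 h, against 2679 and 2423 at 0.5 h. Of the 4 green-tissue markers 1 fell at 12 h, LHCB4.2, a protein of the photosystem II antenna, which had 4.27 ± 1.71 (SD, n = 2) at 12 h and 53.9 ± 20.3 at 0.5 h. The part of both in the fall of the chloroplast genes was not tested.

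At 24 h, 10 of 26 members were lower in roots (32.5% of all probe sets tested), with a median log2 change of −0.64 against −0.21 for all probe sets tested, and 9 of the 10 had also been called at 12 h. By class these were 3 of 7 genes of other functions, 2 of 4 polymerase genes, 3 of 8 small-subunit genes and 2 of 7 large-subunit genes. Against 1 h the count was also 10 (31.4% of all probe sets). This result depended on the 24 h arrays: without replicate 1 only cemA and rpl33 remained called, 2 in all, and without replicate 2 the count was 16. Of the 4 green-tissue markers 2 were lower at 24 h. The genes that differed within the 24 h pair were mostly those that had fallen at 12 h: the median log2 difference of replicate 1 minus replicate 2 was −0.93 over the 17 members called at 12 h and −0.07 over the 9 others.

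**Figure D4:**
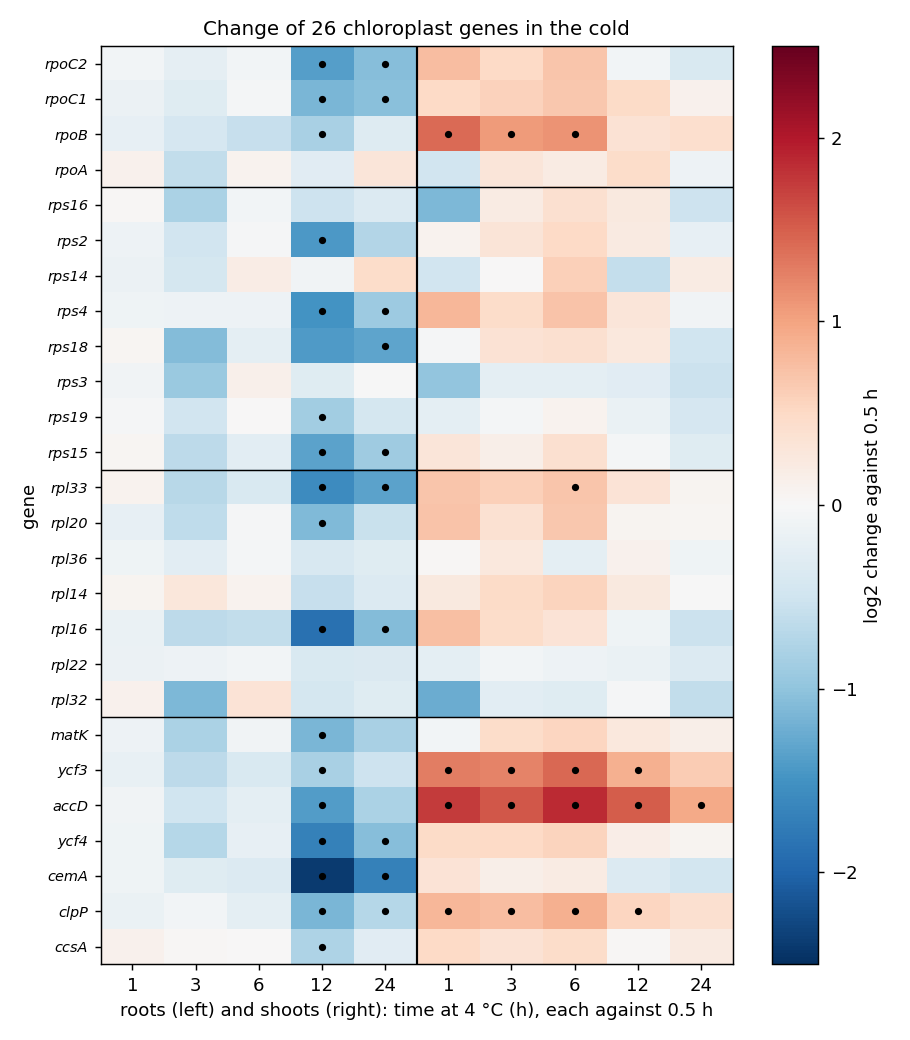
Log2 change against 0.5 h of each of the 26 genes (rows, grouped from top to bottom as polymerase, small-subunit, large-subunit and other functions, in genome order within a group) at 1, 3, 6, 12 and 24 h in roots (left) and shoots (right); a dot marks a limma adjusted p under 0.05. In roots 17 genes carry a dot at 12 h and 10 at 24 h, all lower, and in shoots the dots are those of rpoB, ycf3, accD, clpP and, at 6 h, rpl33, all higher.

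In shoots a few genes rose early. Called higher were 4 of 26 at 1 h (1.82% of all probe sets tested), 4 at 3 h (5.29%), 5 at 6 h (9.74%), 3 at 12 h (14%) and 1 at 24 h (19.2%). By class, the calls were 3 of 7 genes of other functions at each time up to 12 h and 1 at 24 h, 1 of 4 polymerase genes at 1, 3 and 6 h, 1 of 7 large-subunit genes at 6 h, and 0 of 8 small-subunit genes at all 5 times, of which 3, 0, 1, 0 and 0 reached an unadjusted p under 0.05 with limma. The median log2 change of the 26 was 0.32 at 1 h, 0.37 at 3 h, 0.52 at 6 h, 0.20 at 12 h and −0.10 at 24 h, against −0.02, −0.09, −0.12, −0.17 and −0.20 for all probe sets tested.

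These shoot changes all rest on the 0.5 h arrays, on which the 25S control read 212 and 246. Against 1 h, none of the 26 was called at 3 h (3.55% of all probe sets in either direction; 1 reached an unadjusted p under 0.05 with limma) and 1 at 6 h (16.4%), which was rps16, higher. The 1 h pair holds replicate 1, on which rps16 and 5 other members lay more than 1 log2 unit under the partner. In shoots rps16 had 199 ± 194 (SD, n = 2) at 1 h, against means of 335 at 0.5 h and 446 at 6 h. At 12 h against 1 h, 1 was higher and 3 were lower (23.2% of all probe sets lower), and at 24 h 7 were lower (32.2%). At 1 h the count of 4 fell to 1 without replicate 1 at 0.5 h, and to 0 without replicate 2 at 0.5 h or without replicate 1 at 1 h; without replicate 2 at 1 h it was 10, with 5 higher and 5 lower. The calls of rpoB and clpP at 3 h were lost without any 1 of the 4 arrays compared, that of ycf3 without replicate 2 of 0.5 h or of 3 h, and that of rpoB at 6 h without replicate 1 at 0.5 h. At 12 h the calls of clpP and ycf3 were lost without replicate 1 at 12 h or replicate 2 at 0.5 h, and that of clpP also without replicate 1 at 0.5 h.

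The RNA polymerase genes were followed array by array, since rpoB, rpoC1 and rpoC2 are transcribed as a cluster that lies apart from rpoA. The gene rpoB encodes the beta subunit. In roots rpoB had 52.1 and 63.5 at 0.5 h, 59.9 and 38.6 at 1 h, 46.3 and 34.6 at 3 h, 35.8 and 34.3 at 6 h, 23.4 and 33.8 at 12 h, with 27.0 and 69.4 at 24 h. In shoots rpoB had 102 and 117 at 0.5 h, 345 and 273 at 1 h, 253 and 226 at 3 h, 249.9 and 247 at 6 h, 174 and 119 at 12 h, with 160.3 and 141 at 24 h. Every shoot array from 1 h on lay above the 0.5 h shoot arrays, and the 1 h arrays were highest, while in roots replicate 2 at 24 h was the highest array and replicate 1 at 12 h the lowest. In roots rpoB fell at 12 h (−0.82 ± 0.28 SE, limma adjusted p = 0.035). In shoots rpoB rose at 1 h by 1.41 ± 0.28 (SE; limma adjusted p = 0.011), at 3 h by 1.06 and at 6 h by 1.11, and was 0.37 above at 12 h and 0.43 above at 24 h without passing the test. Against 1 h, rpoB was lower at 12 h (−1.04) and at 24 h (−0.98).

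Its neighbours rpoC1 and rpoC2 encode the beta' and beta'' subunits. In roots rpoC1 had 366 and 379 at 0.5 h, 327 and 347 at 1 h, 387 and 235 at 3 h, 388 and 329 at 6 h, 170.2 and 156 at 12 h, with 128 and 241 at 24 h. In shoots rpoC1 had 754 and 960.5 at 0.5 h, 1121 and 1291 at 1 h, 1124 and 1429.8 at 3 h, 1390.00 and 1345 at 6 h, 1297 and 1089 at 12 h, with 847 and 983 at 24 h. The root arrays of 12 h and replicate 1 of 24 h were the lowest, and all lay below the 0.5 h root arrays, while the shoot arrays after 0.5 h overlapped with those of 0.5 h at 24 h. In roots rpoC1 fell at 12 h (−1.14 ± 0.24 SE, limma adjusted p = 0.0019) and at 24 h (−1.04), and in shoots its changes of 0.10 to 0.68 did not pass the test.

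For rpoC2 the root arrays had 274 and 291 at 0.5 h, 274 and 261 at 1 h, 263 and 218 at 3 h, 283 and 254 at 6 h, 104 and 102 at 12 h, with 104 and 163 at 24 h. The shoot arrays of rpoC2 had 605 and 753 at 0.5 h, 1338 and 1004 at 1 h, 785 and 1154 at 3 h, 1100.4 and 1094 at 6 h, 907 and 458 at 12 h, with 437 and 615 at 24 h. In roots both 12 h arrays and both 24 h arrays lay below all earlier ones, and in shoots replicate 1 at 1 h was the highest and replicate 1 at 24 h the lowest. In roots rpoC2 fell at 12 h (−1.37 ± 0.27 SE, limma adjusted p = 0.0011) and at 24 h (−1.06). In shoots the change of rpoC2 was 0.77 at 1 h and −0.38 at 24 h, neither past the test. On the other side of rpoC2 lies rps2, which fell by 1.43 on the log2 scale in roots at 12 h, and its change of −0.72 at 24 h did not pass the test.

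The alpha subunit gene rpoA lies elsewhere, beside a stretch of ribosomal protein genes. In roots rpoA had 669.99 and 731 at 0.5 h, 724 and 782 at 1 h, 716 and 288 at 3 h, 764 and 720.3 at 6 h, 651 and 502 at 12 h, with 875 and 849 at 24 h. In shoots rpoA had 1390.1 and 2278 at 0.5 h, 739 and 2205 at 1 h, 2128 and 2281 at 3 h, 2125 and 1977 at 6 h, 2369 and 2507 at 12 h, with 1688 and 1578 at 24 h. The low arrays were replicate 2 of roots at 3 h and replicate 1 of shoots at 1 h, and the root arrays of 24 h lay above all other root arrays. No change of rpoA passed the test: it was −0.29 at 12 h and 0.30 at 24 h in roots, and −0.48 to 0.45 in shoots.

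**Figure D5:**
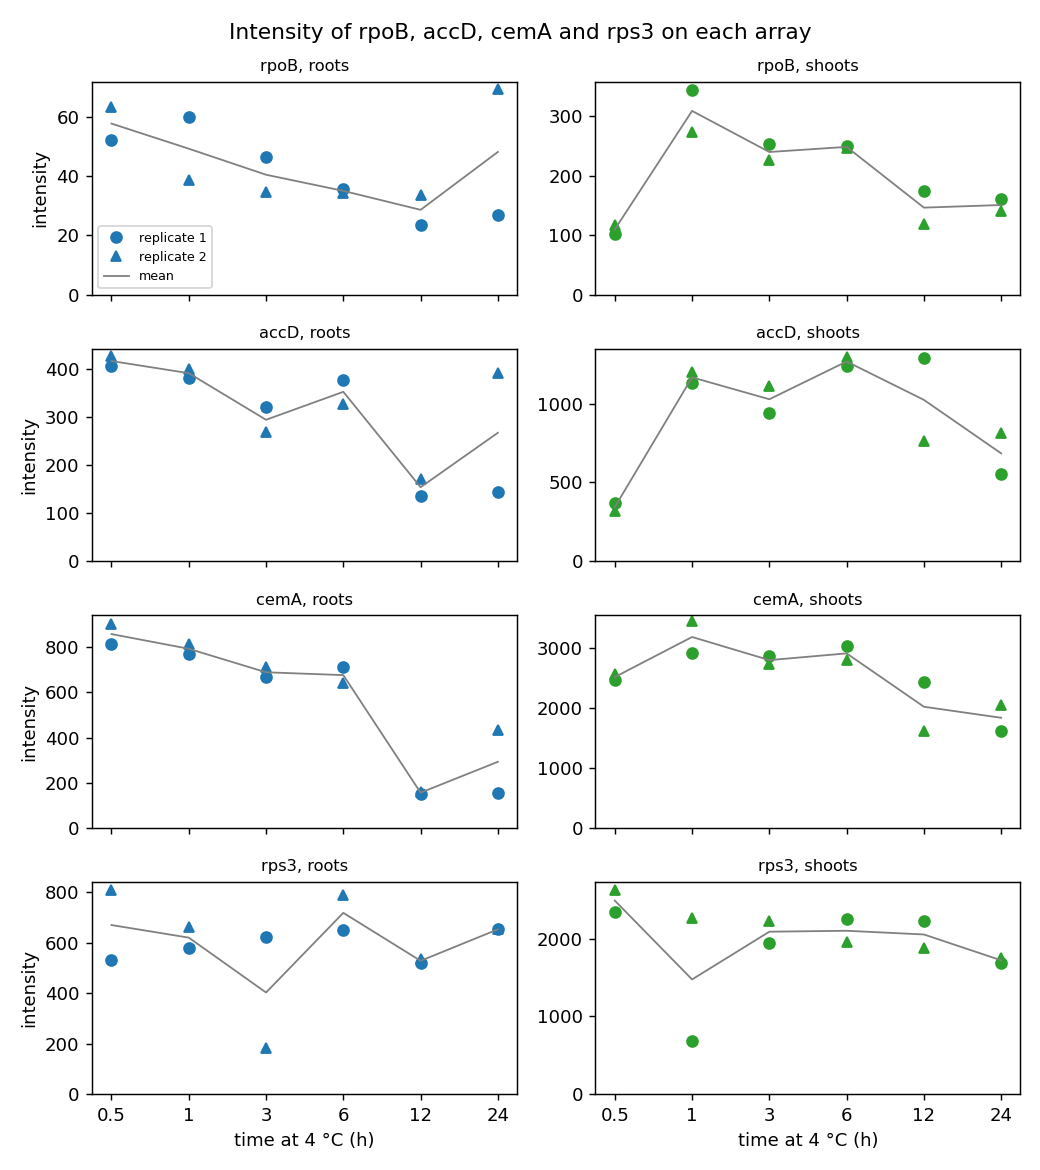
Intensity of rpoB, accD, cemA and rps3 on each array by time at 4 °C in roots (left) and shoots (right); circles are replicate 1, triangles replicate 2, and the grey line is the mean. In shoots rpoB and accD are lowest at 0.5 h, in roots cemA drops to 150 and 160 at 12 h, and rps3 has 1 low array in each tissue, at 184 in roots at 3 h and 690 in shoots at 1 h.

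Among the genes of other functions accD changed most in shoots. In roots accD had 406 and 427 at 0.5 h, 381 and 401 at 1 h, 320.1 and 268 at 3 h, 377 and 328 at 6 h, 136 and 171 at 12 h, with 143 and 391 at 24 h. In shoots accD had 368 and 318 at 0.5 h, 1134 and 1202 at 1 h, 945 and 1113 at 3 h, 1238 and 1300.1 at 6 h, 1289 and 761 at 12 h, with 552 and 818 at 24 h. All shoot arrays from 1 h on were above both 0.5 h arrays, and in roots both 12 h arrays and replicate 1 at 24 h lay far below the 0.5 h arrays while replicate 2 at 24 h lay close to them. In roots accD fell at 12 h (−1.39 ± 0.32 SE, limma adjusted p = 0.0034), and at 24 h its change of −0.78 did not pass the test. In shoots accD rose at 1 h by 1.74 ± 0.32 (SE; limma adjusted p = 0.007), at 3 h by 1.56, at 6 h by 1.86, at 12 h by 1.51 and at 24 h by 0.95 ± 0.32 (SE; limma adjusted p = 0.018). The shoot call at 24 h was lost without replicate 2 at 0.5 h or replicate 2 at 24 h, and against 1 h accD was lower at 24 h (−0.79).

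The gene ycf3 encodes a factor for the assembly of photosystem I and stands beside rps4 in the genome. In roots ycf3 had 218 and 295 at 0.5 h, 213 and 229.8 at 1 h, 189.7 and 129 at 3 h, 206 and 182 at 6 h, 137 and 143 at 12 h, with 124 and 244 at 24 h. In shoots ycf3 had 621 and 589 at 0.5 h, 1349 and 1642 at 1 h, 1280.01 and 1615 at 3 h, 1825 and 1513 at 6 h, 1404 and 913 at 12 h, with 817 and 1093 at 24 h. Every shoot array after 0.5 h lay above the 0.5 h shoot arrays, and every root array of 12 h lay below the 0.5 h root arrays. In roots ycf3 fell at 12 h (−0.81 ± 0.27 SE, limma adjusted p = 0.033). In shoots ycf3 rose at 1 h by 1.29 ± 0.27 (SE; limma adjusted p = 0.017), at 3 h by 1.24, at 6 h by 1.44 and at 12 h by 0.89. Its 24 h change of 0.64 missed the threshold (limma adjusted p = 0.057). In roots rps4 fell at 12 h (−1.49) and at 24 h (−0.90), the 24 h call being lost without replicate 1 at 24 h or replicate 2 at 0.5 h, and its shoot changes of 0.82 at 1 h and 0.72 at 6 h did not pass the test.

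A proteolytic subunit of the Clp protease of the stroma is the product of clpP. In roots clpP had 1102 and 1052 at 0.5 h, 951 and 956 at 1 h, 1011 and 1049 at 3 h, 989 and 843 at 6 h, 489 and 473 at 12 h, with 518 and 820.4 at 24 h. In shoots clpP had 1797 and 1822 at 0.5 h, 3064 and 3393 at 1 h, 2910.2 and 3284 at 3 h, 3383 and 3322 at 6 h, 3009.8 and 2304 at 12 h, with 1974 and 2894 at 24 h. All shoot arrays after 0.5 h were above the 0.5 h shoot arrays, and both 12 h root arrays were below all root arrays of other times. In roots clpP fell at 12 h (−1.15 ± 0.20 SE, limma adjusted p = 0.00029) and at 24 h (−0.72), the 24 h call being lost without replicate 1 of that time. In shoots clpP rose at 1 h by 0.83 ± 0.20 (SE; limma adjusted p = 0.031), at 3 h by 0.77, at 6 h by 0.89 and at 12 h by 0.54. After quantile normalization its shoot calls at 1, 3 and 12 h were lost.

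In roots the largest fall was that of cemA, which encodes a protein of the inner chloroplast envelope. Its root arrays had 814 and 904 at 0.5 h, 771 and 817 at 1 h, 667 and 712 at 3 h, 711 and 643 at 6 h, 150.1 and 160.4 at 12 h, with 153 and 431 at 24 h. The shoot arrays of cemA had 2462 and 2558 at 0.5 h, 2912 and 3445 at 1 h, 2856 and 2729.6 at 3 h, 3023 and 2787 at 6 h, 2420.2 and 1611 at 12 h, with 1618 and 2044 at 24 h. Both 12 h root arrays and both 24 h root arrays lay below all earlier ones, and replicate 1 at 24 h was as low as the 12 h pair. In roots cemA fell at 12 h (−2.39 ± 0.30 SE, limma adjusted p = 1.2e-05) and at 24 h (−1.69 ± 0.30 SE, limma adjusted p = 0.00018), and without replicate 1 at 24 h the change there was −0.98 and still called. In shoots the changes of cemA were −0.46 to 0.33 and none passed the test.

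Beside cemA lies ycf4, another photosystem I assembly gene. In roots ycf4 had 749.7 and 670.2 at 0.5 h, 669.8 and 646 at 1 h, 520.2 and 357 at 3 h, 627 and 596 at 6 h, 197 and 232 at 12 h, with 206 and 533 at 24 h. In shoots ycf4 had 1859 and 1907 at 0.5 h, 2282 and 3062 at 1 h, 2465 and 2844 at 3 h, 2807 and 2776 at 6 h, 2391 and 1869.6 at 12 h, with 1777 and 2190.1 at 24 h. The 12 h root pair and replicate 1 at 24 h were the lowest root arrays, and in shoots replicate 1 at 24 h lay under both 0.5 h arrays, with all other shoot arrays between 1859 and 3062. In roots ycf4 fell at 12 h (−1.68 ± 0.29 SE, limma adjusted p = 0.00034) and at 24 h (−1.07), and in shoots its changes of 0.07 to 0.57 did not pass the test. Without replicate 1 of roots at 24 h the change of ycf4 there was −0.40 and not called.

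Of the remaining genes, ccsA had the following root arrays: 312 and 329.6 at 0.5 h, 341 and 348 at 1 h, 326 and 329 at 3 h, 327 and 321 at 6 h, 168 and 201 at 12 h, with 208 and 333 at 24 h. Its shoot arrays had 1667 and 1678 at 0.5 h, 2275 and 2479.8 at 1 h, 1904 and 2432 at 3 h, 2346 and 2238 at 6 h, 1926 and 1506 at 12 h, with 1742 and 2199.7 at 24 h. Both 12 h root arrays and replicate 1 at 24 h were low, while the other root arrays lay between 312 and 348. In roots ccsA fell at 12 h (−0.77 ± 0.19 SE, limma adjusted p = 0.005), and in shoots its changes of 0.03 to 0.50 did not pass the test. The neighbouring rpl32 was not called at any time in either tissue.

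The intron maturase gene matK, whose product helps splice chloroplast introns, had 384 and 388 at 0.5 h, 314 and 399 at 1 h, 319 and 151 at 3 h, 399 and 329 at 6 h, 149 and 193 at 12 h, with 172 and 267 at 24 h in roots. In shoots matK had 1179 and 1589.7 at 0.5 h, 755 and 2235 at 1 h, 1781 and 1975 at 3 h, 1873 and 2105 at 6 h, 1879 and 1459 at 12 h, with 1362 and 1689.8 at 24 h. Replicate 2 of roots at 3 h lay in the range of the 12 h root pair, and replicate 1 of shoots at 1 h was the lowest shoot array. In roots matK fell at 12 h (−1.14 ± 0.38 SE, limma adjusted p = 0.034), and at 24 h its change of −0.82 did not pass the test. In shoots its changes were −0.07 to 0.53, none called.

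Some ribosomal protein genes were called lower in roots and others were not, and a gene not called may still have fallen. The largest falls at 24 h were those of rpl33, rps18 and rpl16. In roots rpl33 had 406 and 422 at 0.5 h, 444 and 441 at 1 h, 276 and 231 at 3 h, 329 and 307 at 6 h, 124 and 141 at 12 h, with 113 and 216 at 24 h. Both 12 h and both 24 h arrays lay below all earlier ones. It fell at 12 h (−1.57 ± 0.24 SE, limma adjusted p = 9.0e-05) and at 24 h (−1.35 ± 0.24 SE, limma adjusted p = 0.0002), and at 24 h the call held without either array of that time (−0.91 without replicate 1).

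The gene next to rpl33 is rps18. In roots rps18 had 110.5 and 214 at 0.5 h, 184 and 137 at 1 h, 145 and 28.8 at 3 h, 146 and 111 at 6 h, 49.7 and 52.7 at 12 h, with 53.2 and 59.1 at 24 h. Its pairs were far apart at 0.5 h and at 3 h, and the 12 h and 24 h arrays were close together at the low end, above only replicate 2 at 3 h. It fell at 24 h (−1.31 ± 0.52 SE, limma adjusted p = 0.046). That call was lost under 9 of 13 alternatives tried, among them the removal of either array of that time. The change of rps18 at 12 h, −1.42, missed the threshold (limma adjusted p = 0.0503). The third gene of this stretch, rpl20, fell at 12 h (−1.10) and changed by −0.55 at 24 h without passing the test.

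In the stretch that holds rpl14, rpl16, rps3, rpl22 and rps19 in this order, neighbours differed. In roots rpl16 had 1139 and 1184 at 0.5 h, 982 and 1089 at 1 h, 902 and 603 at 3 h, 818 and 703 at 6 h, 342 and 282 at 12 h, with 320.1 and 906 at 24 h. The 12 h pair and replicate 1 at 24 h were the lowest, and replicate 2 at 24 h was close to replicate 1 at 3 h. It fell at 12 h (−1.87 ± 0.31 SE, limma adjusted p = 0.00023) and at 24 h (−1.09), with −0.35 and no call at 24 h without replicate 1. Next to it, rps3 in roots had 531 and 809.7 at 0.5 h, 579 and 662 at 1 h, 622 and 184 at 3 h, 649 and 789 at 6 h, 520.1 and 537 at 12 h, with 654 and 653 at 24 h. The 12 h and 24 h arrays of rps3 lay between 520 and 654, within the range of the earlier arrays, and its log2 changes of −0.31 at 12 h and −0.01 at 24 h did not pass the test. In the same stretch rps19 fell at 12 h (−0.87), while rpl14 (−0.58) and rpl22 (−0.38) did not pass the test. No test of the difference between neighbouring genes was made.

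The 3 ribosomal protein genes with the highest log2 change at 24 h in roots were rps14, rps3 and rpl36, none of them called. In roots rps14 had 47.9 and 37.3 at 0.5 h, 46.7 and 29.4 at 1 h, 29.3 and 28.2 at 3 h, 47.8 and 51.8 at 6 h, 31.9 and 47.2 at 12 h, with 41.6 and 90.9 at 24 h. Replicate 2 at 24 h stood above all other root arrays, and the remaining arrays overlapped across times (change at 24 h 0.46, limma adjusted p = 0.31). In roots rpl36 had 591 and 713 at 0.5 h, 603 and 599 at 1 h, 617 and 471 at 3 h, 621 and 633 at 6 h, 469 and 507 at 12 h, with 559.6 and 491 at 24 h. The 12 h and 24 h arrays lay under both 0.5 h arrays, and its changes of −0.41 at 12 h and −0.30 at 24 h did not pass the test.

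In shoots no ribosomal protein gene was called at 24 h. The highest changes were those of rps14 (0.21), rpl33 (0.06) and rpl20 (0.05). In shoots rps14 had 124 and 192 at 0.5 h, 95.9 and 121 at 1 h, 208 and 115 at 3 h, 160.2 and 351 at 6 h, 104 and 93.7 at 12 h, with 147 and 220.4 at 24 h. Its arrays scattered widely, with replicate 2 at 6 h far above its partner. For rpl33 the shoot arrays had 1620.1 and 1701 at 0.5 h, 2361 and 3097 at 1 h, 2122 and 2973 at 3 h, 2627 and 2728 at 6 h, 2353 and 1862 at 12 h, with 1467 and 2045 at 24 h. All arrays from 1 to 12 h lay above the 0.5 h pair, and the 24 h arrays lay on both sides of it. In shoots rpl33 rose at 6 h by 0.69 ± 0.24 (SE; limma adjusted p = 0.048), a call lost without any 1 of the 4 arrays compared. The shoot arrays of rpl20 had 327 and 304 at 0.5 h, 565 and 486 at 1 h, 335 and 514 at 3 h, 508 and 508 at 6 h, 366 and 300.2 at 12 h, with 283 and 378 at 24 h. Replicate 1 at 1 h was the highest array, and no change of rpl20 in shoots passed the test.

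The lowest changes at 24 h in shoots were those of rpl32 (−0.62), rpl16 (−0.53) and rps3 (−0.53). In shoots rpl32 had 1149 and 1694 at 0.5 h, 216 and 1578 at 1 h, 1059.6 and 1277 at 3 h, 1267 and 999 at 6 h, 1403 and 1332 at 12 h, with 953 and 859 at 24 h. Apart from replicate 1 at 1 h, which was far below all others, the 24 h pair was the lowest. For rpl16 the shoot arrays had 2212 and 1959.7 at 0.5 h, 3325 and 3709 at 1 h, 3165 and 2589 at 3 h, 2829 and 2449 at 6 h, 2089 and 1786 at 12 h, with 1284 and 1601 at 24 h. The 24 h pair was the lowest and the 1 h pair the highest. In shoots rps3 had 2348 and 2631 at 0.5 h, 689.9 and 2262 at 1 h, 1948 and 2231 at 3 h, 2250.1 and 1953 at 6 h, 2227 and 1881 at 12 h, with 1691 and 1752 at 24 h. The 24 h pair lay below all arrays of other times but replicate 1 at 1 h, and the changes of these 3 genes at 24 h had limma adjusted p of 0.46, 0.16 and 0.34.

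The change with time was compared between the tissues by the difference of the changes. At 1 h 0 of 26 members differed (0.162% of all probe sets in either direction), with 7 at an unadjusted p under 0.05 with limma. At 24 h 7 of 26 differed, all with a lower change in roots (16.7% of all probe sets lower), and the median difference of the 26 was −0.60 against −0.04 for all probe sets tested. By class these were 5 of 7 genes of other functions, 1 of 4 polymerase genes, 1 of 7 large-subunit genes and 0 of 8 small-subunit genes, of which 0 reached an unadjusted p under 0.05 with limma. The lowest differences were those of accD (−1.74 ± 0.45 SE, limma adjusted p = 0.0069), rpl33 (−1.41 ± 0.34 SE, limma adjusted p = 0.0039) and cemA (−1.23 ± 0.42 SE, limma adjusted p = 0.032). The highest among the 7 were those of clpP (−1.12), rpoC1 (−1.14) and ycf4 (−1.14). For accD the root arrays had 143 and 391 at 24 h and 406 and 427 at 0.5 h, and the shoot arrays 552 and 818 at 24 h and 368 and 318 at 0.5 h. The count of 7 was 3 without replicate 1 of roots at 24 h, replicate 1 of shoots at 0.5 h or replicate 2 of shoots at 24 h, 4 without replicate 2 of shoots or of roots at 0.5 h, and 12 without replicate 2 of roots at 24 h. The differences of accD, rpl33 and clpP stayed past the test without any 1 of the 8 arrays compared.

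The 43 photosynthesis genes of the same genome give the nearest comparison, and no test between the classes was made. In roots 24 of 43 photosynthesis genes fell at 12 h (median −1.01), as 17 of the 26 genes did (median −1.12), and 13 of 43 at 24 h (median −0.51). In shoots 13 of 43 were higher at 1 h, 12 at 3 h, 16 at 6 h, 12 at 12 h and 10 at 24 h, with median log2 changes of 0.66, 0.67, 0.76, 0.42 and 0.27, and none was lower. The gene rbcL, for the large subunit of the carbon-fixing enzyme Rubisco, is 1 of the photosynthesis genes next to accD in the genome. It rose in shoots by 2.65 at 1 h and by 1.29 at 24 h, where accD rose by 1.74 and 0.95. All 43 were lower in roots than in shoots (median −2.73, against −1.98 for the 26 genes). Of 11 mitochondrial genes past the filter, 11 were higher in roots than in shoots (median 0.76). Of all 16073 probe sets tested, 9259 were also higher in roots (median 0.30). At 12 h in roots 5 of the 11 fell and 1 rose, where 17.8% of all probe sets fell and 1596 of 16073 rose.

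Nuclear genes whose products act with those of the 26 genes were mostly not measured by a probe set of their own. Of 36 listed plastid ribosomal proteins, 8 were. At 12 h in roots 2 of the 8 fell (17.8% of all probe sets tested), AT3G54210 (−0.83) and AT2G43030 (−0.54). At 24 h in roots 6 fell (32.5% of all probe sets), led by AT2G43030 (−1.18) and AT4G01310 (−0.78), and 1 rose, AT4G17560 (0.33). In shoots at 24 h 4 of the 8 fell (5512 of all 16073 probe sets tested), among them AT4G01310 (−0.93) and AT3G54210 (−0.56), and none rose. All 8 were lower in roots than in shoots over all times, with a median log2 difference of −3.81.

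Of 8 listed plastid polymerases and sigma factors only AT5G15700 was measured. In roots it had 28.3 and 28.3 at 0.5 h, 17.6 and 10.3 at 1 h, 22.6 and 15.1 at 3 h, 26.2 and 6.10 at 6 h, 24.2 and 9.95 at 12 h, with 42.8 and 39.1 at 24 h. In shoots AT5G15700 had 16.7 and 14.3 at 0.5 h, 9.13 and 5.58 at 1 h, 9.80 and 18.2 at 3 h, 13.8 and 12.9 at 6 h, 38.0 and 39.6 at 12 h, with 72.8 and 87.4 at 24 h. Both shoot arrays of 12 and of 24 h lay above all earlier shoot arrays. Since AT5G15700 reached an intensity of 30 only on these arrays and on the root arrays of 24 h, it passed the filter through the groups where it is high, and its values are given with no test. Of 13 listed Clp protease subunits 4 were measured, and in shoots 1, 1, 2 and 1 of them fell at 3, 6, 12 and 24 h. Of all 16073 probe sets tested, 387, 1918, 4229 and 5512 fell in shoots at these times. The chloroplast gene clpP rose at 3, 6 and 12 h. AT1G09130 fell at 3, 6 and 12 h, with log2 changes of −0.37, −0.40 and −0.31. Of 3 listed genes for chloroplast cytochrome c assembly 2 were measured, and AT1G49380 fell in shoots at 24 h (−0.83), where ccsA changed by 0.23 without passing the test. Of 14 listed RNA binding and decay proteins 2 were measured and 1 fell in shoots at 12 h. None of 13 polymerase-associated proteins and none of 4 nuclear acetyl-CoA carboxylase subunits had a probe set of its own.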

How the data were processed

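The 24 samples were grouped by tissue and time from their titles, 2 arrays a group. The deposited values are linear intensities, 1 per probe set. They come from MAS5, per the submitters' processing notes, with no version or settings given in the sources used here. Every array had been scaled to a trimmed mean (2% off each end) of 100.

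A pseudocount of 10 was added and log2 taken, a scale that understates changes of dim probe sets. Of 22810 probe sets 64 controls were set aside, and the 16073 with at least 30 on at least 2 arrays were tested with limma 3.58.1 in R 4.3.3, in 1 fit of the 12 groups that used every array and left 12 residual degrees of freedom. P-values are 2-sided, Benjamini-Hochberg adjusted within a comparison, and called under 0.05. The fit was tested on simulated data. Genes were named from the platform annotation and RefSeq's gene table (TAIR10.1), which also gave the order of neighbouring genes.

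Array values are given for every rpo gene and gene of other function, and for the 3 rps or rpl genes with the highest and the 3 with the lowest 24 h change in each tissue, and tissue differences for the 3 highest and 3 lowest called. From a nuclear list up to 4 called genes could be named. The members and lists were chosen with earlier results of these data known. The nuclear and marker lists come from general knowledge by locus. Same-numbered root and shoot arrays deviated with correlations of −0.08 to 0.06. This cannot show whether they share plants, and the labels do not say. Another pseudocount, filter, scaling, prior, baseline, block and the removal of each array were tried as alternatives. No sequence was used here.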

Additional observations from a re-analysis of the deposited data

Results flagged for a closer look

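For 7 of the 26 genes the change from 0.5 to 24 h differed between the tissues, by limma's test of that difference at an adjusted p under 0.05, with a lower change in roots in each, where 16.7% of all probe sets tested had a lower change in roots. Without 1 of the arrays compared the count was 3 to 12. The log2 difference of roots minus shoots was −1.74 for accD, −1.41 for rpl33, −1.23 for cemA, −1.15 for ycf3, −1.14 for ycf4, −1.14 for rpoC1 and −1.12 for clpP. The part of the 25S control, which was low on the shoot arrays of 0.5 h, and of the unlike 24 h root arrays in these differences was not tested.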

How the results depend on the processing

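Of 77 results of single members past the threshold, 41 kept their sign and stayed past it under every alternative tried. The tissue difference kept all 26 calls throughout, and these are among the 41. No shoot call against 0.5 h held under every alternative. The count at 12 h in roots was 12 to 14, against 17, without any 1 array compared. Leaving out 1 array gave 0 to 10 calls in shoots at 1 h, 1 to 2 at 3 h, 3 to 4 at 6 h, 1 to 3 at 12 h and 0 to 3 at 24 h, 0 to 2 in roots at 3 h and 2 to 16 at 24 h, and 0 to 2 and 3 to 12 for the tissue differences in the 1 h and 24 h change. Where a group was left with 1 array, that array was taken to vary like the other groups.

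With 1 h in place of 0.5 h as the baseline, shoots had 0 calls at 3 h, 1 at 6 h, 4 at 12 h (1 higher, 3 lower) and 7 at 24 h, all lower, so the direction turned at 12 and 24 h. The 1 h shoot baseline holds replicate 1, which lay more than 1 log2 unit under its partner for matK, rpl32, rpoA, rps3, rps16 and rps18. Among the changes called against 0.5 h or against 1 h, those that changed sign were the log2 changes of rpoB (−0.35, −0.29, −1.04 and −0.98 at 3, 6, 12 and 24 h), accD (−0.19, −0.23 and −0.79 at 3, 12 and 24 h), ycf3 (−0.050 and −0.39 at 3 and 12 h), clpP (−0.061 and −0.29 at 3 and 12 h) and rpl33 (−0.015 and −0.64 at 6 and 24 h). The cause was not tested.

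In shoots at 24 h the count of 1 became 2 with a pseudocount of 50, 4 with median centring, 2 with quantile normalization (1 higher, 1 lower) and 2 with a trended prior. In roots at 24 h median centring gave 6, and for the tissue difference in the 1 h change a pseudocount of 50 gave 1. The cause was not tested. With the replicate number as a block, roots at 24 h had 9 calls and the other counts were those of the fit without it: 4, 4, 5, 3 and 1 in shoots, 17 in roots at 12 h and 7 for the tissue difference at 24 h. Since the labels do not say that a number marks shared plants, this says nothing of a weaker effect. Counting the 7 probe sets of both inverted repeat copies as members, an alternative chosen after seeing the data, gave 23 in roots at 12 h and 33 for the tissue difference. A second probe set per gene could not be tried because no member has more than 1. Signal over background is not known, since the values carry no detection calls.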

Other observations

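The 7 probe sets that hold both copies of an inverted repeat gene (rps12, which has 2 of them, rpl2, rpl23, rps7, ycf1 and ycf2) were tested but not counted among the members. All 7 were lower in roots than in shoots over all times, with a median log2 difference of −1.74. In roots 6 of 7 fell at 12 h (median −0.94) and 1 at 24 h (median −0.47), and in shoots 1 rose at 6 h. Among the photosynthesis genes the calls in shoots at 6 h were 5 of 10 ndh genes (median log2 change 1.39), 6 of 15 psb genes (0.74), 2 of 6 pet genes (0.62), 1 of 6 atp genes (0.64), 1 of 5 psa genes (0.48) and rbcL (2.69). In roots at 12 h those that fell were 4 of 10 ndh, 8 of 15 psb, 3 of 6 pet, 4 of 6 atp and 4 of 5 psa genes, and rbcL (−1.62).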
